A study of Mus musculus with 6 samples.

Results

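Elastic fibre genes code for the proteins that build the stretchable fibres of the artery wall. The set examined here holds 10 genes, chosen by name, out of 25939 genes listed in each expression table: the elastin gene Eln, the fibrillin genes Fbn1 and Fbn2, the fibulin genes Fbln1, Fbln2, Fbln5, Efemp1 (fibulin-3) and Efemp2 (fibulin-4), and the microfibril-associated genes Mfap4 and Mfap5. RNA was sequenced from smooth muscle cells that had been taken from mouse aorta and grown in culture. In the TMAO group, 3 cultures received trimethylamine N-oxide, a metabolite of gut bacterial and hepatic origin, for 48 h; the Control group of 3 cultures did not receive it. The sources used here state no strain, age, sex, genotype or dose. They also leave unsaid whether separate mice gave the cultures of a group, so a p-value here reflects only how far these cultures differ, which may be technical.

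Elastic fibres consist of a core of elastin, laid down as soluble tropoelastin and then cross-linked by lysyl oxidases, within a sheath of fibrillin microfibrils. Fibulins and other small glycoproteins join the core to the sheath and bring the cross-linking enzymes to it. In the aorta, smooth muscle cells make most of these proteins early in life, and the finished fibres let the vessel recoil between heartbeats. Microfibrils also hold latent transforming growth factor beta in the matrix through latent TGF-beta binding proteins.

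Gene levels were deposited as FPKM, fragments scaled to exon length and to the library total. The length that recovered whole reads joins all annotated exons of a gene, 8098 bases for Eln and 2037 for Efemp1. Comparisons of level between genes therefore depend on this length, which can exceed that of the transcript present in the cells. The implied library totals lay between 14991252 and 16806728 reads. Of 10 smooth muscle markers, 6 averaged over 1 FPKM, and their sum was 594 to 613 FPKM in TMAO and 611 to 615 FPKM in Control libraries. Acta2 made up most of this sum, at 483 FPKM in TMAO and 487 FPKM in Control libraries. The defining contractile markers Tagln, Cnn1 and Myh11 averaged under 1 FPKM in either group. All TMAO libraries lay below all Control libraries for Myocd (under 1 FPKM), Actg2 and Myl9, and above them for Des. Such separation occurred in 6.23% (below) and 12.4% (above) of all tested genes. Of the smooth muscle markers 6 were tested, and 0 passed the test described below. The summed level of 9 adventitial fibroblast markers, most of it from Ly6a, was 449 to 483 FPKM in TMAO and 449 to 491 FPKM in Control libraries, with 6 of the 9 above 1 FPKM. For 6 endothelial markers the sum stayed between 0.532 and 0.738 FPKM in all libraries, and for 6 macrophage markers, with Lyz2 in the lead, it was 76.0 to 83.9 FPKM in TMAO and 78.9 to 97.6 FPKM in Control libraries. Of these 6 macrophage markers, 3 averaged over 1 FPKM. Besides Lyz2 they were Cd14, at 5.14 FPKM in TMAO and 5.40 FPKM in Control, and Cd68, at 4.28 and 4.17 FPKM. The leukocyte marker Ptprc, the lowest of the 6, averaged 0.0401 FPKM in TMAO and 0.0399 FPKM in Control. In bulk RNA, fewer cells of a type and less RNA per cell cannot be told apart.

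No elastic fibre gene passed the test after TMAO. Fibulin-2 had the lowest TMAO level relative to Control, with a ratio of means of 0.81, followed by fibrillin-1 with 0.837, and these were the members that differed most. Fibulin-5 and fibulin-3 stood slightly higher in every TMAO library than in any Control library, with ratios of 1.08 and 1.05. Elastin, fibrillin-1, fibrillin-2, fibulin-1, fibulin-4 and both microfibril-associated genes had overlapping groups.

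By limma, on log2(FPKM + 1) and over the 11062 genes that reached 1 FPKM in 3 or more libraries, 0 of the 9 tested members had an adjusted p under 0.05, where 20 genes, or 0.181% of all tested, did. At an unadjusted p below that value stood 3 of the 9, Fbln2, Fbn1 and Fbln5, against 13.1% of all genes. With voom, another limma method, run on reads recovered from the FPKM values, 1 of the 9 passed, Fbln2, against 1.95% of all genes. The voom run also rescaled the libraries, by a trimmed mean of log ratios, and tested 10893 genes. It thus differs from the main test in scaling and gene set as well as method. Every TMAO library lay above every Control library for 2 members, against 12.4% of all genes, and below for 1 member, against 6.23%. The 9 log2 differences ran from -0.30 to 0.14 with a median of -0.02, next to a median of 0.025 over all tested genes; 4 were above 0 and 5 below. Of all tested genes 60.0% were above 0, a share that was 49.0% with quantile normalization, 46.4% with median-ratio size factors and 49.8% with voom. Each of the 9 had at least 1 FPKM in all 6 libraries, so none was tested on the strength of a single group. Fbn2 was under the filter and is described by its values alone.

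**Figure D1:**
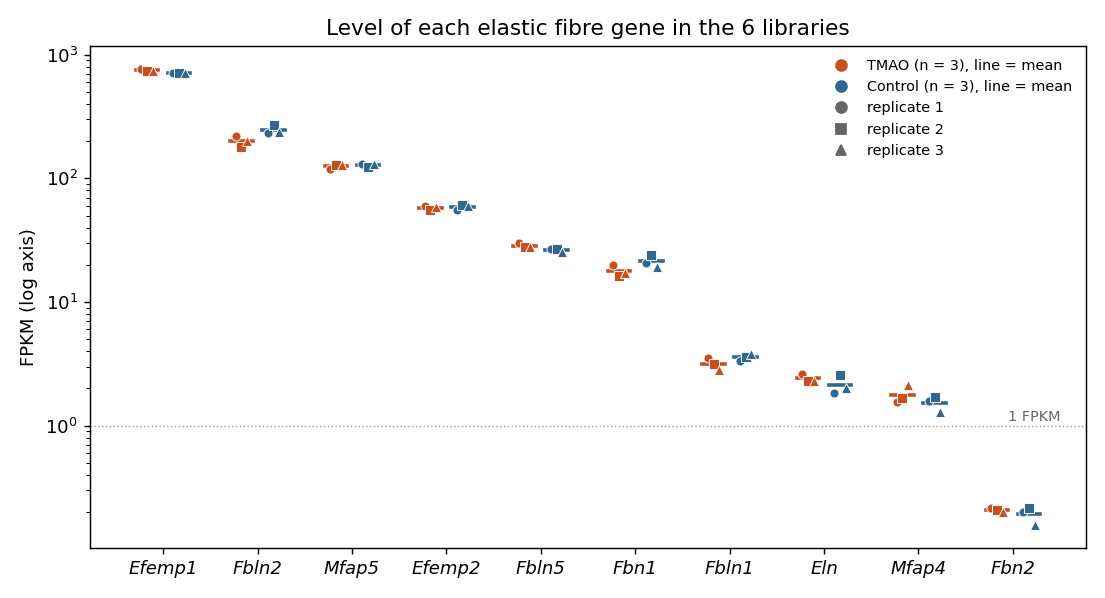
FPKM (log axis) of the 10 elastic fibre genes in 3 TMAO (left, orange) and 3 Control (right, blue) libraries; points are libraries, shapes are replicate numbers and lines are group means. Levels run from Efemp1, at 708 FPKM or more, to Fbn2, at 0.216 FPKM or less, and the groups lie close together at every gene.

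The members spanned a wide range of FPKM, and the order by FPKM was the same in both groups. From highest to lowest it ran Efemp1, Fbln2, Mfap5, Efemp2, Fbln5, Fbn1, Fbln1, Eln, Mfap4 and Fbn2. At each step the lowest library of the higher gene lay above the highest library of the next gene, within TMAO and within Control. Some of these steps were narrow. In TMAO libraries the lowest Fbln1 value was 2.83 FPKM and the highest Eln value 2.64 FPKM. Between Eln and Mfap4, the lowest Eln value was 2.31 FPKM and the highest Mfap4 value 2.15 FPKM in TMAO, and 1.85 and 1.69 FPKM in Control. In Control libraries the lowest Fbln5 value was 25.5 FPKM and the highest Fbn1 value 24.2 FPKM. Efemp1 alone held 62.7%, 64.1% and 62.7% of the summed FPKM of the 10 genes in TMAO libraries 1 to 3 and 60.3%, 58.1% and 59.7% in Control libraries 1 to 3. This share depends on exon length, 2037 bases for Efemp1 and 6370 for Fbln2. By reads, Fbln2 exceeded Efemp1 in every Control library, with 22418, 26121 and 25204 against 21961, 21987 and 24240. Efemp1 exceeded Fbln2 in every TMAO library, with 25963, 24030 and 22562 against 23361, 18234 and 19066. By FPKM the elastin gene itself was among the 3 lowest of these 10 genes, an order that depends on the exon lengths used.

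Elastin (Eln, ENSMUSG00000029675, chromosome 5, 134702593 to 134747323, minus strand of mm10) codes for tropoelastin, the monomer of the fibre core. It had 2.64, 2.31 and 2.31 FPKM in TMAO libraries 1 to 3, against 1.85, 2.56 and 2.01 FPKM in Control libraries 1 to 3. Control 2 reached into the TMAO range and Control 1 was the lowest of all, so the groups overlapped. The means were 2.42 ± 0.189 FPKM in TMAO and 2.14 ± 0.372 FPKM in Control (SD, n = 3 each). The log2 difference was 0.13 ± 0.097 (SE), with a 95% interval from -0.09 to 0.34 and a limma adjusted p = 0.622. These levels rest on 280 to 353 reads per TMAO library and 225 to 312 per Control library, and counting alone gives a spread of 5.67% and 6.09% of the mean, where the libraries had 7.81% and 17.4%. Without Control replicate 2 the log2 difference was 0.22 (limma adjusted p = 0.409), without Control replicate 1 it was 0.06 (0.889), without TMAO replicate 1 it was 0.08 (0.837), and quantile normalization gave 0.08 (0.713).

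Fibrillin-1 (Fbn1, ENSMUSG00000027204, chromosome 2, 125300594 to 125507993, minus strand), the main rod of microfibrils in the adult and the gene mutated in human Marfan syndrome, had 20.1, 16.1 and 17.3 FPKM in TMAO libraries, against 20.7, 24.2 and 19.1 FPKM in Control libraries. TMAO 1 lay above Control 3, and the remaining TMAO libraries lay below all Control libraries. The means were 17.9 ± 2.05 FPKM in TMAO and 21.3 ± 2.63 FPKM in Control (SD, n = 3 each). Its log2 difference of -0.24 ± 0.102 (SE; 95% interval -0.48 to -0.01) had an unadjusted p of 0.0436 and did not pass, at a limma adjusted p = 0.367. Control 2 was the highest library, and without it the difference was -0.15 (limma adjusted p = 0.548); without TMAO replicate 2, the lowest, it was -0.18 (0.503). On the opposite strand, exons of Gm9913 cover 20.1% of the exon bases of Fbn1, and whether reads were counted by strand is not stated in the sources used here. Gm9913 had 0.292 to 0.347 FPKM in TMAO and 0.192 to 0.429 FPKM in Control libraries, far under Fbn1. That level does not show how the overlap bears on Fbn1, since the counting of reads in shared bases is unknown.

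Fibrillin-2 (Fbn2, ENSMUSG00000024598, chromosome 18, 58008623 to 58210487, minus strand), a fibrillin best known from developing tissue, was the lowest member, at 0.215, 0.209 and 0.202 FPKM in TMAO libraries and 0.202, 0.216 and 0.158 FPKM in Control libraries. All 3 TMAO libraries lay inside the Control range. The levels rest on 40 to 47 reads per TMAO library and 35 to 43 per Control library. Counting alone gives a spread of 15.1% in TMAO and 15.9% in Control.

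Fibulin-2 (Fbln2, ENSMUSG00000064080, chromosome 6, 91212455 to 91272540, plus strand), which binds fibrillin-1 and tropoelastin at the border of core and sheath, was the second highest member by FPKM. It had 222, 179 and 199.7 FPKM in TMAO libraries, against 234, 272 and 235 FPKM in Control libraries. All TMAO libraries lay below all Control libraries, and the gap between TMAO 1 and Control 1 was narrow. The means were 200.3 ± 21.3 FPKM in TMAO and 247 ± 21.5 FPKM in Control (SD, n = 3 each), and the log2 difference was -0.30 ± 0.089 (SE; 95% interval -0.51 to -0.10). With an unadjusted p of 0.00971 it stood at rank 474 of all tested genes, and its limma adjusted p = 0.226 missed the threshold. With voom on recovered reads the log2 difference was -0.34 and the adjusted p = 0.00488, a call that the other 13 alternatives did not give, with limma adjusted p from 0.114 to 0.513. Between 18234 and 26121 reads stood behind each value, so counting alone gives a spread of 0.703% in TMAO and 0.638% in Control, where the libraries had 10.6% and 8.71%.

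Fibulin-5 (Fbln5, ENSMUSG00000021186, chromosome 12, 101746565 to 101819055, minus strand) binds tropoelastin and guides its deposition on microfibrils. It had 29.9, 28.0 and 28.1 FPKM in TMAO libraries, against 26.8, 27.1 and 25.5 FPKM in Control libraries. The groups did not overlap, and TMAO 2, at 28.0 FPKM, was close to Control 2, at 27.1 FPKM. The means were 28.7 ± 1.06 FPKM in TMAO and 26.5 ± 0.830 FPKM in Control (SD, n = 3 each), with a log2 difference of 0.11 ± 0.050 (SE; 95% interval 0.00 to 0.22), an unadjusted p of 0.0496 and a limma adjusted p = 0.380. Median-ratio size factors moved the difference to 0.07 (0.585).

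Fibulin-3 (Efemp1, ENSMUSG00000020467, chromosome 11, 28853204 to 28926743, plus strand), a fibulin of the vessel and eye matrix, had 771, 739.5 and 739 FPKM in TMAO libraries, against 718, 717 and 708 FPKM in Control libraries. It had the highest FPKM of the members, and its 3 Control libraries were the closest set of any member. The means were 749.9 ± 18.6 FPKM in TMAO and 714 ± 5.37 FPKM in Control (SD, n = 3 each). Its log2 difference of 0.07 ± 0.039 (SE; 95% interval -0.02 to 0.16) had a limma adjusted p = 0.493. Although the groups did not overlap, median-ratio size factors moved the difference to 0.03 (0.867) and voom to 0.04 (0.768).

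Promoter windows of the 4 members whose unadjusted p or whose separation of groups has just been described are printed here so that they can be compared. They come from RefSeq on GRCm38.p6, the assembly that mm10 denotes, and each covers 300 bases around the start of a RefSeq transcript, read 5′ to 3′ on the gene's strand. Those starts need not be the outer ends of the genes given above: the Fbln2 and Fbn1 windows lie inside the gene bounds, the Fbln5 window lies before its bound, and the Efemp1 window spans it. Capitals mark the GC box GGGCGG and the AP-1 motif TGANTCA on either strand. Fbln5 has 2 windows in the table, of which the one nearer the 5′ end of the gene is shown.
Fbln2 promoter, chr6:91212514-91212813, plus strand: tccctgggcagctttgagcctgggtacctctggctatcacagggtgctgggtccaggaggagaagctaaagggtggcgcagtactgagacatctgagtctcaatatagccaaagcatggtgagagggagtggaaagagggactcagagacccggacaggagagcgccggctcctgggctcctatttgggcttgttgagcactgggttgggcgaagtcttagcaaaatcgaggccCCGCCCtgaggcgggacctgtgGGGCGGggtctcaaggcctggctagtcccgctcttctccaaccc
Fbn1 promoter, chr2:125506389-125506688, minus strand: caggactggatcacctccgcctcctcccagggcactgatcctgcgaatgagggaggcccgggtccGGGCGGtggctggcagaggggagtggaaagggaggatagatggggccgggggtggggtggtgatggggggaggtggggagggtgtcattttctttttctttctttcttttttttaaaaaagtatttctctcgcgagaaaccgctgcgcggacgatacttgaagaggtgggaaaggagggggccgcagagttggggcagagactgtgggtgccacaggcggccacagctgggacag
Fbln5 promoter, chr12:101819070-101819369, minus strand: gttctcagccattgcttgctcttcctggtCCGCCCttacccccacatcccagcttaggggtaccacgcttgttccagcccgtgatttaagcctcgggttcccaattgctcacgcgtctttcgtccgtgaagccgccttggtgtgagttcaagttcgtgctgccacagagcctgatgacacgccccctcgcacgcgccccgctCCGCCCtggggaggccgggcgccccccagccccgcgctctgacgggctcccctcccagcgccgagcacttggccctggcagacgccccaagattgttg
Efemp1 promoter, chr11:28852955-28853254, plus strand: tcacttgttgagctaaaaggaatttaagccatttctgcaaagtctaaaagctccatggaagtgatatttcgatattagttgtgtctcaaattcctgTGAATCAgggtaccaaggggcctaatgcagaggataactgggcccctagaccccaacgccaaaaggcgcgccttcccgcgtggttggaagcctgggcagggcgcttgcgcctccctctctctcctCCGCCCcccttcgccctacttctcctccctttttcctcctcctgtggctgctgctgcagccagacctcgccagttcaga

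The Fbln2 window held 2 GC boxes, Fbn1 had 1, Fbln5 had 2, and Efemp1 had 1 together with 1 AP-1 motif. Of all 32851 promoter windows in the table, 35.7% held a GC box and 7.8% an AP-1 motif. The TATA motif TATAAA, present in 13.6% of all windows, was in 0 of these 4, and the motif CCAAT, present in 37.4%, was in Fbln5 alone. The GC content of the windows was 60.3% for Fbln2, 60.3% for Fbn1, 65.7% for Fbln5 and 54.3% for Efemp1, with a median of 52.7% over all windows. The second Fbln5 window, not shown, had a GC content of 48.7% and held 0 GC boxes and 0 CCAAT motifs. In the windows shown, members with lower and with higher TMAO levels shared the GC box, and a match of letters does not show a bound site. Nor was the GC box limited to the 4 members printed: Efemp2 windows held 2, 5 and 7, and Fbln1 windows 0 and 2.

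Fibulin-4 (Efemp2, ENSMUSG00000024909, chromosome 19, 5473954 to 5482517, plus strand), which brings lysyl oxidase to tropoelastin and without which mouse arteries lack ordered elastic fibres, had 59.9, 55.5 and 59.0 FPKM in TMAO libraries, against 55.2, 61.4 and 59.8 FPKM in Control libraries. The TMAO values all lay within the Control range. Its log2 difference of -0.02 ± 0.053 (SE; 95% interval -0.13 to 0.10) had a limma adjusted p = 0.932. Exons of Mus81, on the opposite strand, cover 4.6% of its exon bases.

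Fibulin-1 (Fbln1, ENSMUSG00000006369, chromosome 15, 85205949 to 85286535, plus strand), a glycoprotein of matrix and blood that binds fibronectin, had 3.52, 3.13 and 2.83 FPKM in TMAO libraries, against 3.35, 3.60 and 3.77 FPKM in Control libraries. TMAO 2 and TMAO 3 were lower than every Control library, whereas TMAO 1 was not. The log2 difference was -0.14 ± 0.083 (SE; 95% interval -0.33 to 0.04; limma adjusted p = 0.519), and without TMAO replicate 3 it was -0.08 (0.829).

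The microfibril-associated pair differed widely in abundance. Mfap5 (ENSMUSG00000030116, chromosome 6, 122505845 to 122529290, plus strand), whose product MAGP-2 binds fibrillins, had 120.0, 127 and 129 FPKM in TMAO libraries, against 129.7, 124 and 130.1 FPKM in Control libraries. TMAO 1 was the lowest library and the groups overlapped, with a log2 difference of -0.03 ± 0.045 (SE; 95% interval -0.13 to 0.07; limma adjusted p = 0.824). Mfap4 (ENSMUSG00000042436, chromosome 11, 61485431 to 61488900, plus strand), whose product binds elastin and collagen, had 1.54, 1.66 and 2.15 FPKM in TMAO libraries, against 1.59, 1.69 and 1.30 FPKM in Control libraries. TMAO 3 stood above the rest on 62 reads, where the other libraries had 42 to 51, and the log2 difference was 0.14 ± 0.104 (SE; 95% interval -0.09 to 0.37; limma adjusted p = 0.628). Without TMAO replicate 3 the Mfap4 difference was 0.045 (0.930), without Control replicate 3 it was 0.07 (0.875), and quantile normalization gave 0.086 (0.765). Exons of Mapk7, on the opposite strand and at 4.57 FPKM in TMAO and 3.96 FPKM in Control, cover 4.6% of the exon bases of Mfap4.

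**Figure D2:**
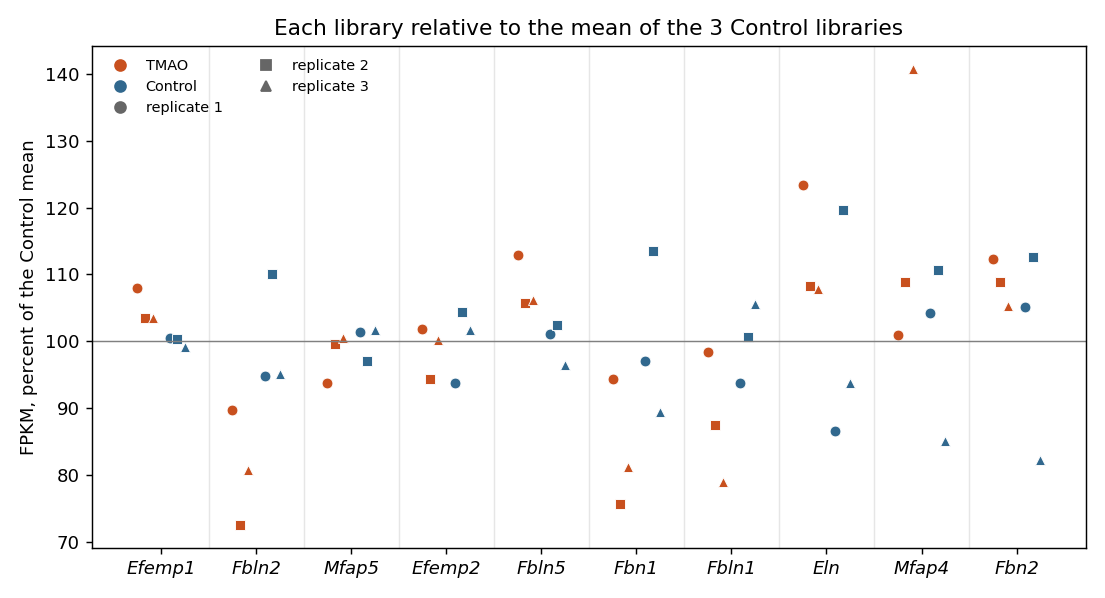
FPKM of each library as a percent of the mean of the 3 Control libraries of that gene, with TMAO (orange) left of Control (blue) and shapes for replicate numbers. Fbln2 has all TMAO points below all Control points, Fbln5 and Efemp1 have them above, and the remaining genes overlap; Control 2 is the highest library for Fbn1, Fbln2, Efemp2 and Fbn2.

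Some libraries recurred at the ends of these ranges. Control 2 was the highest of the 6 for Fbn1, Fbn2, Fbln2 and Efemp2, and TMAO 1 was the highest for Eln, Fbln5 and Efemp1. TMAO 2 was the lowest for Fbn1 and Fbln2, the same genes for which Control 2 was the highest. The full spread over the 6 libraries was 1.52-fold for Fbln2 and 1.5-fold for Fbn1, against 1.09-fold for Efemp1 and 1.08-fold for Mfap5. Library 2 of each group therefore widened the difference of Fbln2 and Fbn1, and without Control replicate 2 the Fbln2 log2 difference was -0.23 (limma adjusted p = 0.350), while without TMAO replicate 2 it was also -0.23 (0.257).

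**Figure D3:**
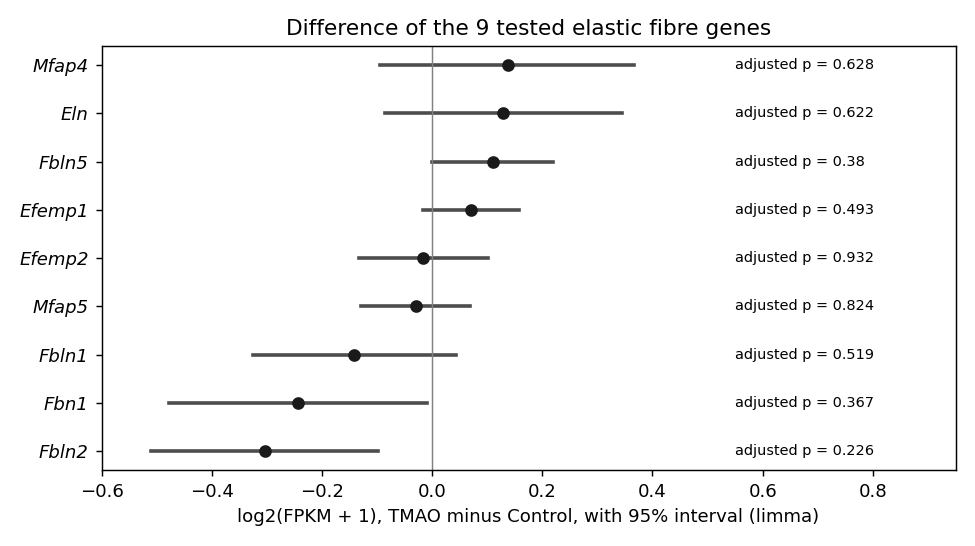
Log2 difference of each tested elastic fibre gene (TMAO minus Control, on log2(FPKM + 1)) with its unadjusted 95% interval and limma adjusted p. Fbln2 and Fbn1 lie lowest, at -0.30 and -0.24, and no adjusted p is under 0.05.

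A level taken relative to another gene of the same library does not depend on how libraries are scaled. Efemp1, as the member with the highest FPKM, served as the denominator for the others. Fbln2 stood at 28.8%, 24.3% and 27.0% of the Efemp1 FPKM in TMAO libraries, against 32.6%, 38.0% and 33.3% in Control libraries. Fbn1 stood at 2.61%, 2.18% and 2.34% in TMAO libraries, against 2.88%, 3.38% and 2.69% in Control libraries. Fbln1 was the third gene with all TMAO ratios lower, at 0.382% to 0.456% in TMAO and 0.467% to 0.533% in Control. For Eln, Fbn2, Fbln5, Efemp2, Mfap4 and Mfap5 the ratios overlapped. For Fbln5 they were 3.78% to 3.87% in TMAO and 3.61% to 3.78% in Control. That overlap was slight, between TMAO 2 at 3.7828% and Control 2 at 3.783%. For Mfap5 it lay between TMAO 3 at 17.4% and Control 2 at 17.3%, and the remaining TMAO ratios were lower than every Control ratio. These ratios carry the slightly higher TMAO level of Efemp1 with them and were set up after the levels were seen, so they are given without a test.

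**Figure D4:**
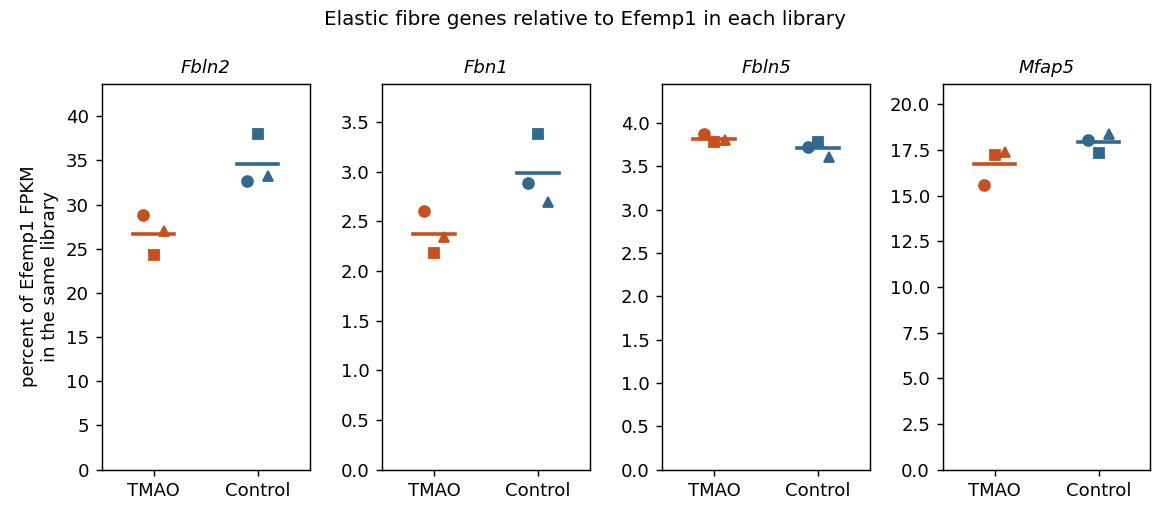
FPKM of 4 elastic fibre genes as a percent of the Efemp1 FPKM in the same library, in TMAO (left) and Control (right); points are libraries, shapes are replicate numbers, lines are means and axes start at 0. Fbln2 and Fbn1 have all TMAO points under all Control points. Fbln5 overlaps only between TMAO 2 and Control 2, and Mfap5 only between TMAO 3 and Control 2.

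Related genes, which cross-link, assemble, degrade or attach the fibre or code for its further proteins, were counted in lists, of which 46 genes were listed in the tables and 36 passed the filter. By limma, 0 rose and 1 fell, Itgb5, beside 8 and 12 of all tested genes, and 10 of the 36 had an unadjusted p under 0.05, against 13.1% of all genes. With voom 5 of the 36 passed, against 1.95% of all genes. The median log2 difference of the 36 was -0.06, with 15 above 0 and 21 below, where 60.0% of all tested genes were above 0 on the FPKM as deposited. Groups did not overlap for 9 of them, with TMAO higher in 3 (background 12.4%) and lower in 6 (background 6.23%).

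Itgb5, whose integrin subunit pairs with the alpha v chain in a receptor for matrix proteins, had 32.2, 30.5 and 32.0 FPKM in TMAO libraries, against 37.8, 43.4 and 40.2 FPKM in Control libraries. The groups were well apart, with means of 31.6 ± 0.915 and 40.5 ± 2.81 FPKM in TMAO and Control (SD, n = 3 each). Its log2 difference was -0.35 ± 0.056 (SE; limma adjusted p = 0.0487). This call held with median-ratio size factors, with a filter of a mean of at least 5 FPKM and with voom. It did not hold with quantile normalization, under no filter, with a pseudocount of 0.1, without the robust variance or with the replicate block. It was also lost in 5 of the 6 fits that left out 1 library, all but the one without Control replicate 1. Its partner Itgav had 26.7 FPKM in TMAO and 28.0 FPKM in Control, with a log2 difference of -0.07 (limma adjusted p = 0.778).

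Among the cross-linking genes, 0 of 6 passed and 5 had a negative difference. Lysyl oxidase, Lox, the enzyme that oxidises lysines of tropoelastin and collagen, was abundant and close between the groups, at 463 ± 32.6 FPKM in TMAO and 482 ± 21.4 FPKM in Control (SD, n = 3 each; log2 difference -0.06, limma adjusted p = 0.726). Loxl1, the lysyl oxidase relative that elastic fibre renewal in adult mice depends on, had 63.2, 61.7 and 61.4 FPKM in TMAO libraries, against 69.7, 76.5 and 71.6 FPKM in Control libraries. Its groups did not overlap, and its log2 difference of -0.22 ± 0.047 (SE) had a limma adjusted p = 0.102, with a call by voom (0.0101). Loxl4 had a log2 difference of -0.275 (limma adjusted p = 0.207).

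Of the other fibre proteins, 5 of 7 were tested and 0 passed. Emilin1, a glycoprotein at the elastin and microfibril interface, had 6.26, 5.59 and 5.78 FPKM in TMAO libraries, against 7.62, 8.01 and 7.47 FPKM in Control libraries. The groups did not overlap, and its log2 difference of -0.34 ± 0.066 (SE) had a limma adjusted p = 0.0818. It passed in 4 of 14 alternatives, those with quantile normalization (0.0439), median-ratio size factors (0.0362), a filter of a mean of at least 5 FPKM (0.0398) and voom (0.00295). Its relative Emilin2 had -0.21 (limma adjusted p = 0.293), and Mfap2, which codes for the microfibril protein MAGP-1, had 9.62 FPKM in TMAO and 9.33 FPKM in Control (log2 difference 0.05, limma adjusted p = 0.890).

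Of the latent TGF-beta genes 6 of 7 were tested and 0 passed. Ltbp2 and Ltbp1, whose products bind fibrillin microfibrils, had log2 differences of -0.295 (adjusted p = 0.25 by limma) and -0.20 (0.336). Ltbp2 passed with voom. Ltbp4, a partner of fibulin-5 in elastin assembly, had 0.09 (0.739). Of the fibrillin partners 3 of 6 were tested and 0 passed. Adamts6, a secreted metalloprotease, had 4.32, 3.59 and 3.98 FPKM in TMAO libraries, against 2.65, 2.78 and 2.90 FPKM in Control libraries. These groups did not overlap, with a log2 difference of 0.39 ± 0.080 (SE), a limma adjusted p = 0.0891 and a call by voom. Adamts10, whose product binds fibrillin-1, had 0.24 (0.519), with TMAO libraries at 4.90, 2.92 and 4.15 FPKM and Control libraries at 2.89, 3.27 and 3.35 FPKM.

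Elastin-degrading proteases and their inhibitors were tested in 8 cases and 0 passed. Cathepsin K (Ctsk), a cysteine protease that cleaves elastin and collagen, had 124, 123 and 129 FPKM in TMAO libraries, against 113, 111 and 114 FPKM in Control libraries. The groups did not overlap, with a log2 difference of 0.15 ± 0.041 (SE; limma adjusted p = 0.164). Mmp2, a gelatinase, had -0.08 (0.626), and Mmp7, Mmp9 and Mmp12 were under 0.2 FPKM in every library. The inhibitor Timp1 was abundant, at 3417 FPKM in TMAO and 3327 FPKM in Control (log2 difference 0.04, limma adjusted p = 0.757), and Timp2 had -0.11 (0.442). In the elastin receptor complex, a cell surface assembly of a splice variant of beta-galactosidase with lysosomal enzymes, 0 of 3 genes passed, and Glb1 and Neu1 had -0.135 (adjusted p = 0.537 by limma) and -0.07 (0.795).

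**Figure D5:**
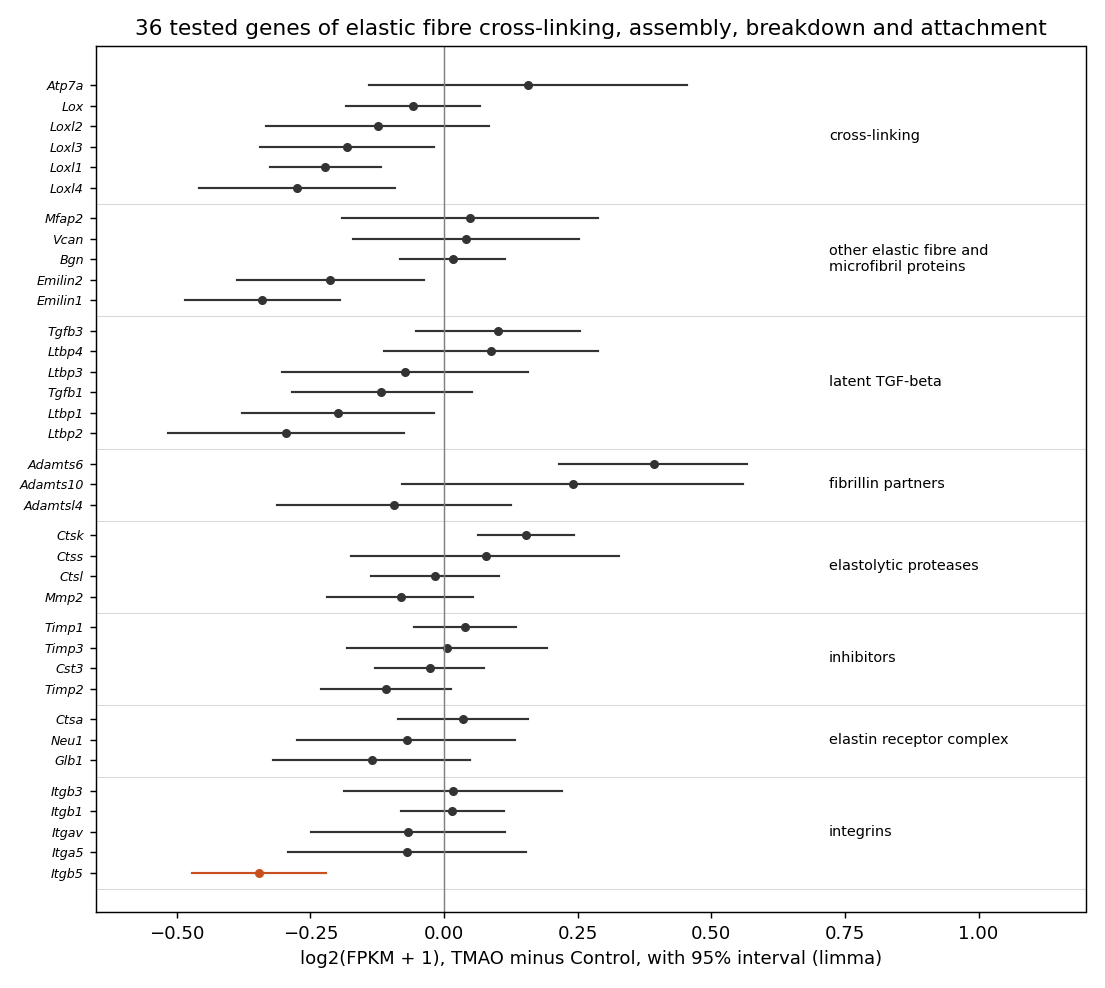
Log2 difference (TMAO minus Control, on log2(FPKM + 1)) with unadjusted 95% interval for the 36 tested genes of these lists, grouped by list; the orange gene passed the limma threshold. Itgb5 is the single gene past it, at -0.35, and Adamts6 has the highest value, at 0.39.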

How the data were processed

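RNA of 6 cultures was sequenced, 3 TMAO and 3 Control, grouped by the sample titles. The authors deposited 1 table per library in FPKM, per the file headers, of which the Control 1 header reads PKM. The submitters' processing notes list Trimmomatic, HISAT2, Cufflinks, HTSeq and mm10; the strand setting and the annotation release are not given there or in the labels. Exon lengths of GENCODE M21 and 1 total per library turned the FPKM of 25507 of 25885 genes (98.5%) into whole reads in all libraries, to within 0.02 reads. The main test was limma 3.58.1 in R 4.3.3 (trended, robust variance) on log2(FPKM + 1), for genes that reached 1 FPKM in 3 or more libraries, with Benjamini-Hochberg adjustment over 11062 genes and a threshold of 0.05, two-sided. A fold on this scale understates changes of low genes. Spreads from counting cover counting error only. Members and lists were chosen with earlier results of these data known; from each related list the text names the genes past the threshold, the 2 smallest p and a panel (Mfap2, Lox, Loxl1, Emilin1, Ltbp4). Emilin3 and Elane were not analysed here. The test was checked on simulated data. Promoters are RefSeq windows; 6 of 10 members matched. Python 3.11.15, pandas 2.3.3 and matplotlib 3.10.9 were used.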

Additional observations from a re-analysis of the deposited data

How the results depend on the processing

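Alternatives were 2 other scalings, 2 other filters, a pseudocount of 0.1, a variance fit that is not robust, the replicate block, voom on recovered reads and each library left out. The count of elastic fibre genes past the threshold was 0 in all of them except voom, where it was 1 (Fbln2, lower). Over all genes the count of 20 (8 higher, 12 lower) became 50 with a mean of at least 5 FPKM, 212 (78 higher, 134 lower) with voom and 0 with no filter, and 11 to 58 when a library was left out: 11 without Control replicate 3, 13 without TMAO replicate 1 and 58 (44 higher, 14 lower) without TMAO replicate 2. Quantile normalization gave 7 higher and 18 lower. The related genes past the threshold, 1 in the main test, were 2 with median-ratio size factors, 2 with the higher filter, 5 with voom, 0 with no filter, 0 with the pseudocount of 0.1, 0 with the variance that is not robust and 0 with the replicate block, and 0 to 1 with a library left out. The cause of these shifts was not tested.

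Left-out libraries turned the sign of small differences: Efemp2 ranged from -0.061 to 0.016 (0.015 without Control replicate 2, 0.016 without TMAO replicate 2), Mfap5 from -0.051 to 0.001 (without TMAO replicate 1) and Mfap2 from -0.05 to 0.17 (-0.052 without Control replicate 3, -0.003 without TMAO replicate 3). Fbln2, Fbn1 and Fbln1 kept a negative sign, and Eln, Fbln5, Efemp1 and Mfap4 a positive one, under every alternative run. The median over the members ranged from -0.055 to 0.016. Deviations of same-numbered libraries from their group mean correlated at -0.086, -0.104 and 0.056 over tested genes. Differently numbered libraries correlated at -0.061 to 0.141. With 3 libraries per group centred on their own mean, these values cannot decide whether replicate numbers pair the libraries. With the replicate block 22 of all genes passed and 0 of the members. Depth limits Fbn2 and Mfap4, with at most 62 reads per library.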

Other observations

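The summed FPKM of the 10 elastic fibre genes was 1231, 1153 and 1179 in TMAO libraries and 1192, 1234 and 1185 in Control libraries, so the totals overlapped. The share of Fbln2 in that sum was 18.0%, 15.6% and 16.9% in TMAO libraries and 19.7%, 22.1% and 19.9% in Control libraries. By reads, the 10 genes took 0.421%, 0.381% and 0.397% of each TMAO library and 0.417%, 0.449% and 0.417% of each Control library.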
